A study of Schizosaccharomyces pombe with 3 samples.

Results

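On the chromosome arms of fission yeast, Schizosaccharomyces pombe, 119 regions were covered by the cohesin subunit Psc3 in wild-type and clr4d cells but came out below the same level in cdc10-v50 cells arrested in G1. They hold 342 tiling probes, 0.922% of the 37107 arm probes considered out of 41551 genome probes on the array. The level used is the running mean of 3 neighbouring probes of the log2 ratio of ChIP over input DNA, centred on the array's median, and a region consists of probes at 1 or more (2-fold or more over the median probe) in wild type and clr4d and below 1 in cdc10-v50, joined where they lie within 1 kb. The same values chose the regions, so their lower level in cdc10-v50 is the rule and not a result. What they can show is where on the chromosomes these regions lie, how far below the level they are, and what surrounds them.

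GFP-tagged Psc3 was precipitated from fixed cells with an antibody against GFP, and the ChIP DNA (Cy5) was hybridised with the whole-cell input DNA (Cy3) to a tiling array. Each group is 1 array. In the cdc10-v50 strain Cdc10 is temperature-sensitive: the cells grew at 26 °C and then spent 4 h at 35 °C, which stops them in G1. The clr4d cells lack Clr4 and, like the wild type, were grown in rich medium at 30 °C. The wild type has the genotype mat1Msmto leu1-32 ade6-216 with Psc3-GFP::kanMX. For clr4d and cdc10-v50 the labels give the mutation alone in the genotype, and the sample titles name Psc3-GFP for all 3 arrays. Allele, temperature and arrest therefore cannot be told apart in cdc10-v50, and the sources used here do not give the share of its cells that had reached G1. No cdc10-v50 culture kept at 26 °C, no wild type at 35 °C and no untagged strain was analysed here.

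Cohesin is a ring-shaped complex of Psm1, Psm3 and the kleisin Rad21, to which Psc3 binds. It is loaded onto chromatin by Mis4 and Ssl3 before DNA replication, and during replication it becomes able to hold the sister chromatids together. In G1 there is no sister to hold. On fission yeast arms cohesin is known to gather where convergent genes, whose transcription runs toward each other, end. Cdc10 is a subunit of MBF, the transcription factor of the genes that start S phase, and Clr4 is the methyltransferase for lysine 9 of histone H3.

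With 1 array per group no difference has a replicate error and no test could be made, so SDs are the spread between probes, regions or genes. The 2 mutant arrays had scans of 20 bits and 1 software version in common, whereas the wild-type scan had 16 bits and another version, so that genotype and scan cannot be told apart in any comparison with wild type. The wild-type ChIP channel was saturated at 2273 genome probes (5.47%), where its ratio is a lower bound, and neither mutant array had any saturated. On the cdc10-v50 array 1215 spots were marked non-uniform and left out, against 9 on the clr4d and 62 on the wild-type array, and the scanner software marked this array alone for evaluation. The SD of the log2 ratio over arm probes was 0.58 in cdc10-v50, 0.68 in clr4d and 0.63 in wild type. At the 5 probes of the clr4 deletion the median input signal was 1676 in cdc10-v50, 7.51 in clr4d and 1689 in wild type, so the deletion is seen in clr4d alone.

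The sources used here do not name the array's genome build, and within the arms its positions match the reference assembly along the left arm of chromosome 3, between 100 and 1000 kb. There 7 regions could be set against genes. The sequences of 3 places that carry the description below were read from RefSeq ASM294v3 at the annotated genes and are shown on the plus strand, 5′ to 3′. The interval between the convergent genes msy1 and mug73, chr3:623223-623515, lies within the bounds of the longest of the 7 regions, partly under member tiles and partly under the stretch from 623401 that was retained in all arrays. The interval between the convergent genes naa20 and rpl1201, chr3:690428-690727, is the first 300 of 661 bases and lies inside another. The asparagine tRNA gene SPCTRNAASN.05, chr3:947262-947335, lies at the outer end of the region beside opy1. Capitals mark AATAAA, the core of the signal for 3′ end formation of messenger RNAs, and its reverse complement TTTATT in the intervals, and the B box of the tRNA gene, bound by the polymerase III factor TFIIIC, searched as GGTTCNANNC on the gene's own strand.
msy1-mug73: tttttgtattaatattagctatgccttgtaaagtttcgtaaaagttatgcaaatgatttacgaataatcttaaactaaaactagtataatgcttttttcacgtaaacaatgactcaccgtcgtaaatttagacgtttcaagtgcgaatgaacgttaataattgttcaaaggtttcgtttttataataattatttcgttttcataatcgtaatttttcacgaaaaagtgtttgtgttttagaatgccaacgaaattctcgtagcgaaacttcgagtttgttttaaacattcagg
naa20-rpl1201: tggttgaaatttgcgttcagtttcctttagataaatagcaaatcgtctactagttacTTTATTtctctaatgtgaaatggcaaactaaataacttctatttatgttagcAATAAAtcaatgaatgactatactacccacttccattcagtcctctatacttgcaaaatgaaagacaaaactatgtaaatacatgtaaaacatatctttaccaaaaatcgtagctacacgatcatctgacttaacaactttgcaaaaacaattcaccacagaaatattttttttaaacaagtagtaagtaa
SPCTRNAASN.05: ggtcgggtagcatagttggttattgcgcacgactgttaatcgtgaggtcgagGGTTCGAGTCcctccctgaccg
Both intervals are rich in A and T: their GC content is 28.7% (msy1-mug73) and 29% (naa20-rpl1201), against a median of 36.3% over the 3000 windows of 300 bases on this stretch. The windows include genes, and intervals between genes were not compared as a set. The interval between the convergent genes duc1 and SPCC594.02C, under a stretch retained in all arrays, has 30.2%. A low GC content is therefore not particular to the weaker regions. The naa20-rpl1201 interval holds AATAAA once on each strand and the msy1-mug73 interval on neither, and 49.8% of the windows hold it on either strand. The B box is found in 36 of the 47 tRNA genes of chromosome 3 (76.6%).

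The regions are short and shallow. Of the 119, 42 consist of 1 probe, 30 of 2 and 47 of 3 or more, and their length runs from 0.3 to 3.9 kb with a median of 0.6 kb. The mean log2 ratio of a region had a median of 0.85 in cdc10-v50 (lowest 0.06, highest 1.16, SD 0.19, 117 regions with a measured spot), 1.203 in clr4d (lowest 0.55, highest 2.12, SD 0.23, 119 regions) and 1.25 in wild type (lowest 0.40, highest 1.89, SD 0.20, 119 regions). Psc3 was thus still well over the median probe of the array at most of them in G1 arrest. The ranges of the 3 arrays overlap, because a region is chosen by the running mean and not by its own probes. The median difference of cdc10-v50 from wild type was -0.42 (SD 0.27) and from clr4d -0.39 (SD 0.28), with cdc10-v50 lower in 113 and in 114 of the 117 regions. The cdc10-v50 and clr4d arrays had the bit depth and software version in common, but cdc10-v50 alone was marked for evaluation. The clr4d and wild-type arrays, both at 1 or more by the rule, differed by a median of -0.0039 (SD 0.29).

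A difference of 0.5 or more in the running mean was found at 169 of the 342 member probes against wild type (49.4%), where 6.87% of all arm probes differ as much in that direction, and at 153 against clr4d (44.7%), where 10.2% do. A difference of 1 or more was found at 15 against wild type (all arm probes 0.513%) and at 17 against clr4d (all arm probes 1.1%). The rule used these contrasts, so nothing is read from the distance between those shares. By regions, 52 were lower by at least 0.5 than wild type and 38 than clr4d, but 3 and 4 were lower by at least 1.

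**Figure D1:**
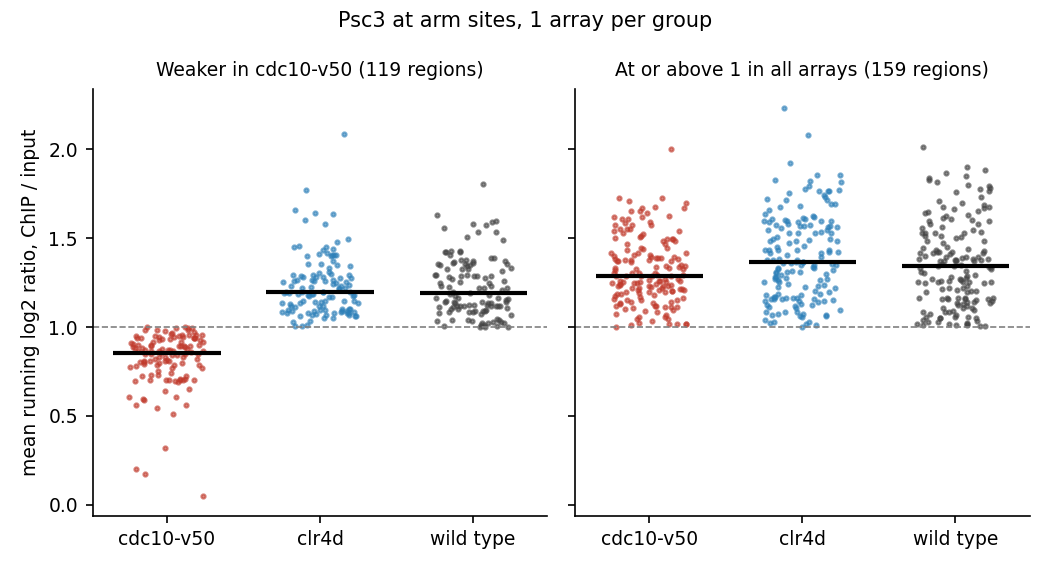
Mean running log2 ratio of ChIP over input (y axis) of each region in cdc10-v50, clr4d and wild type, for the 119 regions weaker in cdc10-v50 (left) and the 159 arm regions at or above 1 in all arrays (right); points are regions, bars medians, and the dashed line is the level of 1. By construction the cdc10-v50 points on the left lie below the line, most of them close to it. In 3 regions the running mean stays below 0.5 at every probe, which the plotted means do not show.

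Most member probes lay near the level that defines them. The running mean in cdc10-v50 was between 0.9 and 1 at 106 probes (31.0%), between 0.8 and 0.9 at 81 (23.7%) and between 0.5 and 0.8 at 123 (36.0%). It was between 0 and 0.5 at 29 probes and below 0 at 3, and its median was 0.82, against 1.23 in clr4d and 1.27 in wild type. Just inside the rule, the 5 regions with the highest cdc10-v50 running mean reached 0.99996, 0.999, 0.996, 0.996 and 0.995. Just outside it, 5 regions at or above the level in all arrays reached 1.001, 1.012, 1.014, 1.015 and 1.019 in cdc10-v50. The region nearest to the level, at 708901 to 709200 of chromosome 1, is 1 of 2 regions of 1 probe whose own spot was not measured in cdc10-v50.

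About as many probes are set apart when either of the other arrays takes the low place. Of the 1272 arm probes at 1 or more in wild type and clr4d, 26.9% were below 1 in cdc10-v50, where 94.8% of all arm probes are. Of the 1233 at 1 or more in wild type and cdc10-v50, 24.6% were below 1 in clr4d, and of the 1240 at 1 or more in clr4d and cdc10-v50, 25% were below 1 in wild type. In regions these sets number 119 (cdc10-v50 low), 119 (clr4d low) and 124 (wild type low). A count of this size is therefore not particular to the G1 array.

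The regions are for the most part the flanks of sites that kept their Psc3. Of the 119, 92 touched a region at or above 1 in all 3 arrays and 103 lay within 1 kb of a cdc10-v50 peak. These counts were not made for all arm probes or for the sets with clr4d or wild type low. The place on a flank is therefore not shown to be particular to the G1 array. Looked at from the sites, wild type and clr4d share 178 arm sites. In cdc10-v50, 76 of them stayed at 1 or more over their whole length, 79 were partly below it and 23 were below it throughout. The sites partly below were the long and high ones, with a median length of 3.0 kb, against 1.05 kb for those wholly retained and 0.6 kb for those wholly below. Their highest running mean had a median of 1.47 in cdc10-v50, 1.71 in clr4d and 1.56 in wild type. For the sites wholly retained these medians were 1.38, 1.41 and 1.34. Inside the 79 sites, 271 of 842 probes were below 1. These lay on the left side alone in 28 sites, on the right side alone in 27, on both sides in 21 and between retained stretches in 3. The wholly lower sites were weak in every array, with highest running means of 0.84 in cdc10-v50, 1.23 in clr4d and 1.12 in wild type as medians. In cdc10-v50 the rule holds these maxima below 1. A site needs at least 2 probes to be partly below the level, and a maximum over more probes tends to be higher. The rule thus sorts the 3 kinds of site in part by length and height, so nothing is read from their order.

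The mean profile at the edge of a retained stretch shows the slope. At 113 borders, each the last tile at 1 or more in all arrays with the lower region beyond it, the mean log2 ratio on that tile was 1.08 ± 0.18 in cdc10-v50, 1.47 ± 0.28 in clr4d and 1.39 ± 0.25 in wild type (SD between borders). At 0.6 kb on the inner side it was 1.29 in cdc10-v50, 1.58 in clr4d and 1.47 in wild type. At 0.9 kb on the outer side it was 0.67 ± 0.33, 1.03 ± 0.43 and 1.15 ± 0.36 in the same order. At 3 kb on the outer side it was 0.23 in cdc10-v50, 0.48 in clr4d and 0.46 in wild type. The cdc10-v50 profile is lowest at each of these distances, and the SD bands of the 3 arrays overlap at each. At 0.6 kb on the outer side the means were 0.73 ± 0.20 in cdc10-v50, 1.14 ± 0.35 in clr4d and 1.26 ± 0.32 in wild type. There the bands of cdc10-v50 and wild type do not overlap. The rule places a border where cdc10-v50 falls below 1 and the others do not, so the lower cdc10-v50 level beside it is no result.

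**Figure D2:**
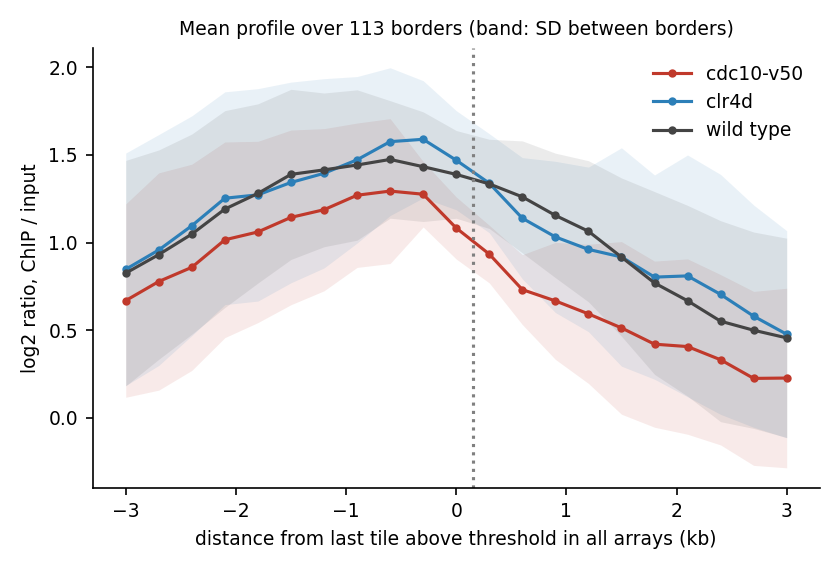
Mean log2 ratio of ChIP over input of single probes (y axis) against the distance in kb from the last tile at 1 or more in all arrays (x axis, positive toward the lower region), over 113 borders; bands are the SD between borders and the dotted line marks the border. The cdc10-v50 line runs below the clr4d and wild-type lines on both sides, with 0.67 against 1.03 and 1.15 at 0.9 kb. Next to the border this order follows from the rule that places it.

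Next to the regions, tiles that are not members were also lower in cdc10-v50. The tiles from the second to the fourth beyond a region's outer edge lie outside the running means that chose it. Over the 134 edges where the next tiles belong neither to a member nor to a region present in all arrays, the mean log2 ratio of those tiles had a median of 0.43 in cdc10-v50, 0.71 in clr4d and 0.75 in wild type. Cdc10-v50 was the lower at 111 edges against wild type (82.8%, median difference -0.35, SD 0.38) and at 113 against clr4d (84.3%, median -0.34, SD 0.40). Over all arm probes it was the lower at 48.2% and 49.8%, with medians of 0.02 and 0.0024. Those are single probes, with median ratios of -0.05 in cdc10-v50, -0.02 in clr4d and -0.06 in wild type. The edges are means of several tiles at higher ratios, so the shares are not like for like. Edges of like level away from the regions were not measured. On the inner side, the 83 all-array regions within 1 kb of a member had a median difference of -0.09 from wild type, with 53 lower, and of -0.20 from clr4d, with 66 lower. The 76 all-array regions away from members had medians of 0.07, with 29 lower, and 0.09, with 24 lower. These neighbours share sonicated fragments with the member probes, so they are not independent of the rule. A retained tile that touches a member also entered that member's running mean. The second outer tile entered the running mean of the tile at which the region ended. Edges followed by a tile at 1 or more in all arrays were left out, which favours a low cdc10-v50. The values therefore only describe the surroundings of the regions, and nothing is read from the shares.

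Both dyes were examined alone, because a high input signal lowers the ratio as a low ChIP signal does. At the member probes the Cy5 (ChIP) signal over the arm median of its array was 0.84 on the log2 scale in cdc10-v50, 1.33 in clr4d and 1.24 in wild type. The Cy3 (input) signal was 0.07 in cdc10-v50, 0.06 in clr4d and -0.11 in wild type. Probe by probe, the median difference of cdc10-v50 from clr4d was -0.49 in Cy5 (SD 0.48) and -0.02 in Cy3 (SD 0.37). Against wild type it was -0.32 in Cy5 (SD 0.50) and 0.17 in Cy3 (SD 0.39). The rule took the ratio of these dyes, and the software normalized them to each other. The source of the lower ratio was therefore not tested. At the 930 probes of the regions present in all arrays, Cy5 was 1.52 in cdc10-v50, 1.54 in clr4d and 1.42 in wild type, and Cy3 was 0.10, 0.06 and -0.16.

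**Figure D3:**
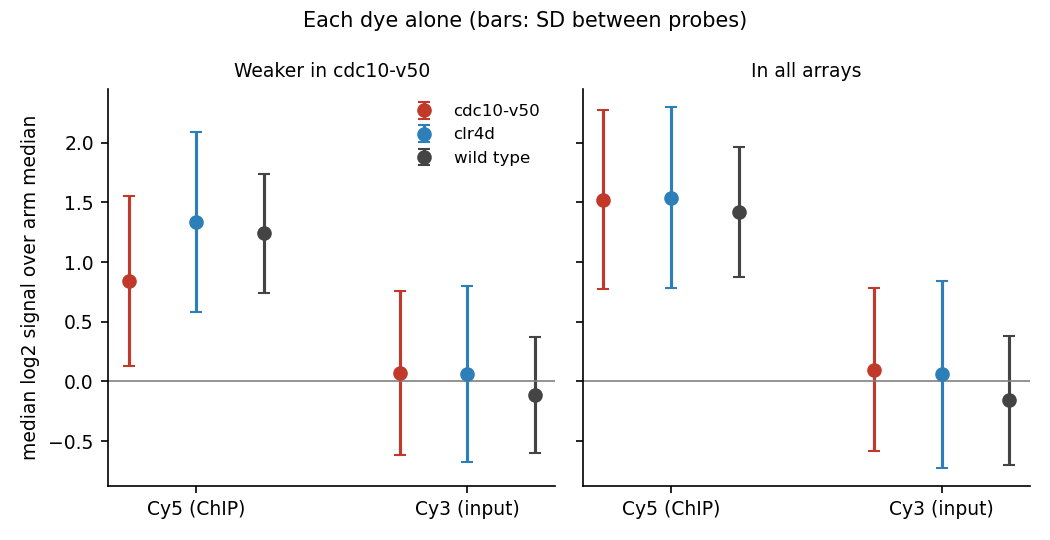
Median log2 signal of each dye over that dye's arm median (y axis) at probes of the regions weaker in cdc10-v50 (left) and of the regions present in all arrays (right); points are medians in cdc10-v50, clr4d and wild type and bars the SD between probes. At the weaker regions Cy5 is 0.84 in cdc10-v50, 1.33 in clr4d and 1.24 in wild type, while Cy3 lies between -0.11 and 0.07 in all 3.

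Saturation of the wild-type scan touched 57 of the 342 member probes (16.7%) and 265 of the 930 all-array probes (28.5%). With those probes set aside, the median probe difference from wild type was -0.51, against -0.52 with them. Non-uniform cdc10-v50 spots numbered 8 among the member probes (2.34%) and 1059 among all arm probes (2.85%). No member probe was without signal well above background in any channel.

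The regions were found along all chromosomes: 64 on chromosome 1, 39 on chromosome 2 and 16 on chromosome 3, or 53.8%, 32.8% and 13.4%, where the arm probes divide as 46.0%, 36.2% and 17.8% and the all-array regions as 49.7%, 35.2% and 15.1%. The median difference of cdc10-v50 from wild type was -0.49 on chromosome 1, -0.40 on chromosome 2 and -0.48 on chromosome 3. From clr4d it was -0.40, -0.38 and -0.44. The longer regions carried the larger differences: in the 47 of 3 or more probes the median was -0.54 from wild type (highest -0.20) and -0.49 from clr4d (highest -0.02). The rule favours this, because a region of 1 probe can be a member through its neighbours, so nothing is read from it.

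Among the 47 regions of at least 3 probes, a pair had the lowest means in cdc10-v50. The first, at 1886701 to 1888500 of chromosome 2, has 6 probes and a mean log2 ratio of 0.18 in cdc10-v50 (SD 0.23), 1.41 in clr4d (SD 0.11) and at least 1.38 in wild type, where all 6 are saturated. Its median Cy5 signal was 2431 in cdc10-v50, 6836 in clr4d and at least 5122 in wild type, and its median Cy3 signal 2434, 2797 and 1908. Clr4d was 2.35-fold and wild type at least 2.31-fold above cdc10-v50. On the tile of a high stretch 0.6 kb before the region, from 1886101, the ratios were 1.71 in cdc10-v50, 2.34 in clr4d and at least 1.73 in wild type. On its second tile, from 1887001, they were 0.15, 1.45 and at least 1.83. Beyond the region, on the tile from 1888801, they were -0.42, 0.91 and 0.44. The stretch over 1 ended about a region's length earlier in cdc10-v50 than in the other arrays. The rule selects this at any region beside a retained stretch.

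The other, at 1484101 to 1485300 of chromosome 1, has 4 probes and a mean of 0.06 in cdc10-v50 (SD 0.22), 1.16 in clr4d (SD 0.10) and at least 1.13 in wild type, where 2 are saturated. It lies 64.2 kb from any region present in all arrays. A cdc10-v50 peak begins 0.9 kb to its right: on the tile from 1486501 cdc10-v50 had 1.45, clr4d 1.39 and wild type 0.89. To its left cdc10-v50 was below the array's median probe, with -0.21 on the tile from 1483201, against 1.67 in clr4d and 0.08 in wild type. This is 1 of the 3 regions whose running mean stayed below 0.5 in cdc10-v50, and the other two are single probes at 1977901 and 4229101 of the same chromosome.

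**Figure D4:**
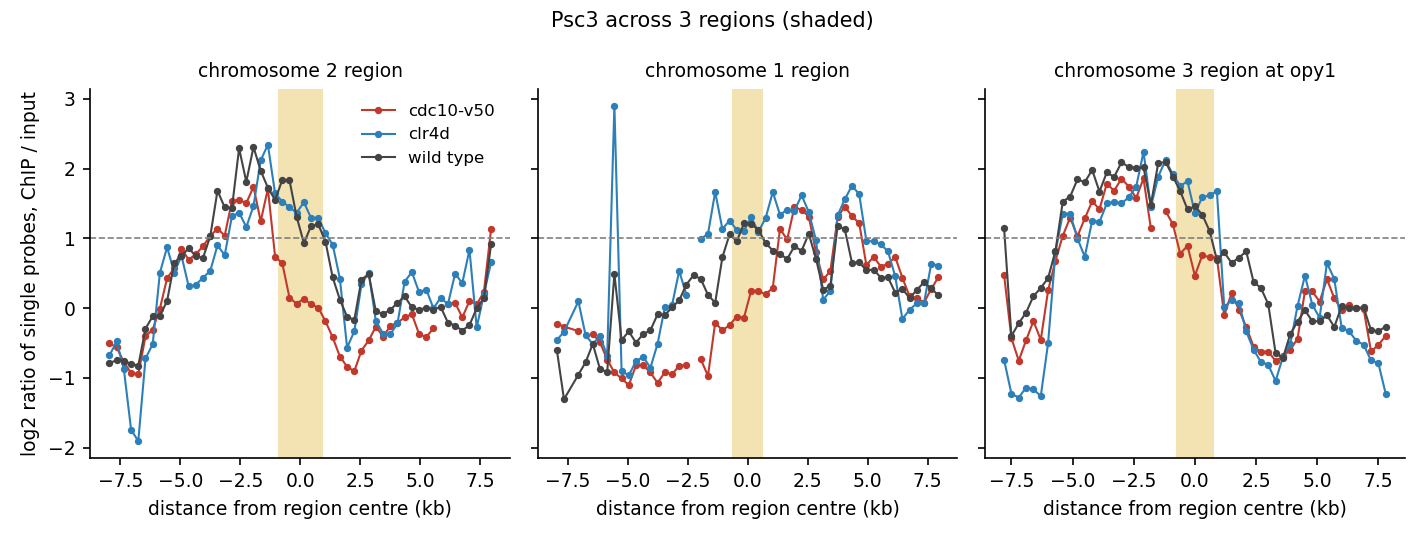
Log2 ratio of ChIP over input of single probes (y axis) against the distance in kb from the region's centre (x axis), in cdc10-v50, clr4d and wild type, at the region of chromosome 2 with a mean of 0.18 in cdc10-v50, the region of chromosome 1 with 0.06 and the region at opy1 on chromosome 3 with 0.73; shading marks the region, the dashed line the level of 1, and lines break where a spot was not measured. In the outer panels cdc10-v50 leaves a shared high stretch earlier than the other arrays, and in the middle panel it is the lowest array in the region and to its left. Inside the shading this order follows from the rule.

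Among the regions of at least 3 probes, the next largest differences came with a mean over 0.5 in cdc10-v50. At 3481501 to 3482700 of chromosome 2 the mean was 0.80 in cdc10-v50, 1.55 in clr4d and at least 1.53 in wild type, and at 1845901 to 1846800 it was 0.53, 1.24 and 1.24. On chromosome 1 the region at 1413601 to 1415400 had 0.60 in cdc10-v50, 1.37 in clr4d and 1.31 in wild type. The 12 probes at 3969601 to 3973200 had a mean of 0.86 in cdc10-v50, 1.67 in clr4d and at least 1.57 in wild type. All 4 adjoin a retained stretch. The 13 probes at 1913101 to 1917000 formed 1 of the 2 longest regions, with 0.52 in cdc10-v50, 1.18 in clr4d and at least 1.41 in wild type. The 7 probes at 2169601 to 2172600 had 0.82 in cdc10-v50, 1.51 in clr4d and 1.36 in wild type. The largest difference from clr4d alone, -1.29, was at 452701 to 454200, where the means were 0.83 in cdc10-v50, 2.12 in clr4d and at least 1.35 in wild type, with all 5 probes saturated there. That region was picked out after its value was seen.

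In all, 16 regions stood alone, with no running mean of 1 or more in cdc10-v50 within 1 kb. They hold 54 probes; 7 consist of 1 probe and 7 of 3 or more. Their highest running mean in cdc10-v50 was 0.20 at the lowest, 0.84 in the median and 0.996 at the highest, against medians of 1.28 in clr4d and 1.12 in wild type. Most are therefore peaks that reach just over the level in clr4d and wild type and stay just under it in cdc10-v50. The longest, 10 probes at 3015601 to 3018600 of chromosome 1, had a mean of 0.86 in cdc10-v50, 1.22 in clr4d and 1.37 in wild type, and the nearest cdc10-v50 peak was 8.1 kb away. The 9 probes at 5163601 to 5166300 had 0.61 in cdc10-v50 (8 measured), 1.29 in clr4d and at least 1.27 in wild type, 1.2 kb from a cdc10-v50 peak.

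Far from any cdc10-v50 peak lay 10 of the 16, at over 5 kb, and 4 of these at over 25 kb. The most distant, at 3269401 to 3270600 of chromosome 2, was 50.1 kb away and had 0.84 in cdc10-v50, 1.33 in clr4d and 1.04 in wild type. At 3391501 to 3392100 of that chromosome the mean was 0.43 in cdc10-v50, 1.08 in clr4d and 1.09 in wild type, and at 3909601 to 3911100 it was 0.88, 1.198 and 1.12. The single probe at 4229101 of chromosome 1 had 0.26 in cdc10-v50, 0.94 in clr4d and at least 0.99 in wild type. These 4 are too few and too short to describe as a class.

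In a few regions the probes themselves were not measured as lower in cdc10-v50. Among the 117 with a measured spot these were 4 against wild type and 3 against clr4d. In 2 of the 4, at 932101 and 964501 of chromosome 1, every wild-type probe is saturated, so the direction there is not known. The single probe at 5469601 of chromosome 1 had 1.07 in cdc10-v50, 0.55 in clr4d and 0.73 in wild type, and it is a member through its neighbours alone. All 47 regions of 3 or more probes were lower in cdc10-v50 than in both other arrays, which the rule largely fixes.

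On the left arm of chromosome 3, between 100 and 1000 kb, the 7 regions (30 probes) were set against 351 protein-coding genes, of which 309 had 3 or more probes, and against 94 junctions of convergent and 94 of divergent gene pairs. All 30 member probes lay nearer to a convergent than to a divergent junction, as did 63 of the 65 probes of all-array regions, where 50.6% of the 2859 probes of the stretch do. The lower regions sat farther out, with 8 of 30 probes within 1 kb of a convergent junction (26.7%), against 33 of 65 for all-array regions (50.8%) and 21.2% of all probes. Their median distance to it was 1.82 kb, against 0.97 kb for all-array regions and 2.48 kb for all probes. None of the 30 lay within 1 kb of a divergent junction, where 21.0% of all probes do. Neighbouring probes of 7 regions are not independent, so these shares are a description.

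Base composition and gene bodies were compared as well. The median GC content of the member probes was 35.7%, against 38% in all-array regions and 36.3% over all probes. Of the member probes 73.3% lay inside a gene, close to the 76.8% of all probes and below the 93.8% of all-array regions.

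Gene by gene, the longest of the 7, at 621901 to 625800, spans the convergent ends of msy1 and mug73, whose interval is printed above, and reaches mlo1. Its mean was 0.82 in cdc10-v50 (SD 0.09, 9 probes measured), 1.502 in clr4d (SD 0.37) and at least 1.45 in wild type (SD 0.17). Its 10 probes leave out a stretch in the middle, at 623401 to 624300, that was over 1 in all arrays: on the tile from 623701 cdc10-v50 had 1.05, clr4d 1.86 and wild type 1.36. A plateau that is near the level in cdc10-v50 and well over it in the other arrays is thus counted on both sides of a retained middle. Over the whole of msy1, which encodes a mechanosensitive ion channel, the mean was 0.32 in cdc10-v50, 0.72 in clr4d and at least 0.79 in wild type. Mug73, a gene named for its induction in meiosis, had 1.00 in cdc10-v50, 1.86 in clr4d and 1.38 in wild type, and mlo1 had 0.64, 1.14 and 1.08.

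The region at 945901 to 947400 forms the right shoulder of a high peak over pog1 and opy1. Its 5 probes had a mean of 0.73 in cdc10-v50 (SD 0.16), 1.63 in clr4d (SD 0.18) and 1.40 in wild type (SD 0.21), and the highest cdc10-v50 probe, 0.89, lay below the lowest probe of clr4d, 1.36, and of wild type, 1.11. The region was chosen by the running means of these probes and described for its large difference, so nothing is read from that gap. Its median Cy5 signal was 1572 in cdc10-v50, 2367 in clr4d and 2814 in wild type, and its median Cy3 signal 949, 794 and 936. Over opy1 as a whole the mean was 1.21 in cdc10-v50, 1.88 in clr4d and at least 1.81 in wild type. The outer tile of this region holds the asparagine tRNA gene printed above. Of the 10 tRNA genes on the stretch it is the 1 in a member region, and 0 lie in all-array regions. On the tile just beyond, from 947401, cdc10-v50 had 0.72, clr4d 1.68 and wild type 0.69.

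A cluster of 2 regions and 2 retained stretches lies between 686101 and 690900, ending at the convergent pair naa20 and rpl1201, which encode the catalytic subunit of the N-terminal acetyltransferase NatB and a ribosomal protein of the large subunit. The inner one, 6 probes at 686101 to 688800, had a mean of 0.71 in cdc10-v50 (SD 0.28), 1.203 in clr4d and at least 1.57 in wild type. It covers pef1, a cyclin-dependent kinase gene, on all of its 4 probes, and over this gene the mean was 0.67 in cdc10-v50 (SD 0.10), 1.197 in clr4d (SD 0.14) and at least 1.72 in wild type (SD 0.09). The difference at pef1 is the largest from wild type among the 9 genes that hold a member probe, -1.05 as measured. Next to it, pgl1 had 0.89 in cdc10-v50, 1.25 in clr4d and at least 1.35 in wild type. The outer region, 2 probes at 690301 to 690900 over the printed naa20-rpl1201 interval, had 0.79 in cdc10-v50, 0.97 in clr4d and 1.38 in wild type. There the cdc10-v50 difference was -0.18 from clr4d and -0.59 from wild type.

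The last of these regions are small. The 2 probes at 355501 to 356100 inside duc1 had a mean of 0.78 in cdc10-v50, 1.501 in clr4d and 1.29 in wild type, beside a retained stretch at 356101 to 359400 that covers the convergent end of duc1 and SPCC594.02C. The 3 probes at 407701 to 408600 in yip3, named after a budding yeast gene of vesicle transport, had 0.79 in cdc10-v50, 1.18 in clr4d and 1.102 in wild type, and they begin 0.3 kb from a retained tile at the end of rpt4, an ATPase gene of the proteasome. The 2 probes at 829501 to 830100 in pho843, a gene of a phosphate transporter family, had 0.70, 1.09 and at least 1.06 in the same order. Over pho843 as a whole cdc10-v50 (0.76) and wild type (at least 0.77) were alike as measured, with clr4d at 1.15.

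Levels were also taken over whole genes. Of the 309 genes, 14 (4.53%) were lower by at least 0.5 in cdc10-v50 than in wild type and 20 (6.47%) than in clr4d; of the 9 genes with a member probe these were 3 and 4. The median difference over the 9 was -0.46 from wild type and -0.40 from clr4d, against 0.07 and -0.02 over the 309. Since the 9 genes were picked by their member probes, their lower level follows largely from the rule, and nothing is read from it. Few genes of the pathways around Cdc10 and cohesin lie on the stretch. Of 18 names listed around MBF it holds 0, and of 13 around cohesin 1. Of 12 around RNA interference and heterochromatin it holds 1, and of 14 highly expressed genes 1. None of these 3 genes holds a member probe. The lists reach beyond MBF targets and cohesin subunits, and the 1 gene found on the cohesin list is cut1. Cut1, the separase gene, had -0.24 in cdc10-v50, -0.27 in clr4d and -0.61 in wild type. Ago1, which encodes Argonaute, had 0.78, 0.30 and 0.19, and tpi1, the triosephosphate isomerase gene, -0.13, -0.97 and 0.30.

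Which regions are counted depends on the background correction and the level. With normexp background correction of the median signals the rule gave 304 regions that share 156 of the 342 probes, and with loess within each array 128 of the 342 probes were shared. In the 5 settings that recompute the ratios (all spots kept, arm centring, scaling, normexp, loess) the pair with the lowest means kept its direction: at 1886701 of chromosome 2 the measured difference from wild type ranged from -1.78 to -1.001 and from clr4d from -1.36 to -1.12, and at 1484101 of chromosome 1 from -1.45 to -0.73 and from -1.17 to -0.92.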

How the data were processed

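Psc3-GFP ChIP-chip was measured on 3 two-colour Agilent arrays, 1 per group (cdc10-v50, clr4d, wild type). Per the labels' protocols, ChIP DNA carried Cy5 and input DNA Cy3, both amplified by random-primed PCR, with no dye swap among the arrays. Fixation used paraformaldehyde (30 min, 18 °C), then dimethyl adipimidate (45 min). Per the file headers, the scans of cdc10-v50 and clr4d went through Agilent Feature Extraction 11.5.1.1 and that of wild type through 11.0.1.1. The processed intensity deposited per channel is background-subtracted and dye-normalized by that software, and the median and background intensity are as scanned. The deposited log10 ratio is red over green, and the deposited flags are scores of 0 or 1. The authors' value table holds log2 of green over red: on each array all 41551 probes match the scanner ratio with its sign turned (tolerance 0.001). It is not centred (medians 0.06 in cdc10-v50, 0.04 in clr4d, -0.17 in wild type) and served as an alternative.

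Log2 red over green processed signal was centred on each array's median; 1417 control spots and non-uniform spots were left out, and saturated spots were kept. The number of arrays limits the precision. The arms left out 100 kb at each end, the centromeres, the mating-type interval and probes marked f, m or r, a mark that the sources used here do not explain. A running mean needed 2 of 3 probes and was broken at gaps over 1 kb. Tiles of 300 bp were placed by the array's own positions, counted from 1. Input signal was set against GC content by 100-kb stretch: 10 stretches of the left arm of chromosome 3 matched ASM294v3 best at shifts from -80 to 80 bp, and 113 of 115 others over 500 bp away. Both exceptions lie outside the arms as defined or beyond 1000 kb. Genes are named on that arm between 100 and 1000 kb: those over or flanking a member region and those of the 4 lists. Regions described were the 10 with the largest difference among those of at least 3 probes, the 5 longest, and 5 on either side of the level, with others singled out after their values were seen. Members and lists were chosen with earlier results of these data known. No test was possible. Python 3.11.15, pandas 2.3.3, R 4.3.3 and limma 3.58.1 were used. The script that applies the rule was tested on simulated data with planted lower and retained sites, and it found both kinds. Other per-sample columns numbered 0. Alternatives were other centring, scaling, normexp (offset 50, on median signals), loess (span 0.3), other levels and flags.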

Additional observations from a re-analysis of the deposited data

How the results depend on the processing

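No paired analysis was possible because each group is 1 array and the labels give no replicate numbers, and no replicate could be left out. Over the 15 alternatives the median difference at the regions ranged from -0.59 to -0.38 against wild type and from -0.49 to -0.33 against clr4d, without a change of sign. The rule that chose the regions fixes that direction. The number of regions, 119, became 304 with normexp, 209 at a level of 0.8, 79 at 1.2 and 47 with at least 3 probes. The share of probes at the level in wild type and clr4d that were below it in cdc10-v50, 26.9%, became 24.2% with centring on arm probes, 18.4% with scaling to the wild-type SD, 33.5% with loess, 22.9% at 0.8, 34.3% at 1.2, 21.3% with the level set at the same quantile of each array, 18.9% with at least 3 probes and 31.8% without saturated probes. The regions standing alone, 16, became 8 with scaling, 71 with normexp, 27 with loess, 42 at 0.8, 7 with at least 3 probes and 25 without saturated probes. The last setting and that of at least 3 probes remove probes by construction; for the others the cause was not tested. Of the 342 probes, scaling shared 213 and arm centring 289. The normexp setting starts from median signals, since the deposited files used here hold no mean signals. Saturation limits the wild-type values, which are lower bounds at 57 member probes.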
